A study of Homo sapiens with 9 samples.

Results

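Transcripts of the G1 cyclins and of the inhibitors of their kinases were followed in OVCAR3, an established human ovarian carcinoma cell line. The set was the 10 genes of the deposited count table whose names are CCND1, CCND2, CCND3, CCNE1, CCNE2, CDKN1A, CDKN1B, CDKN2A, CDKN2B and CDKN2C, out of 58735 genes in all. The study lowered GPX3, the gene of a secreted glutathione peroxidase, with short hairpin RNAs, which a cell processes into small guides against a matching mRNA. The 9 cultures were OVCAR3 cells with a scramble hairpin (labelled WT in genotype), with hairpin shRNA#76 or with hairpin shRNA#78 (both labelled as GPX3 knock-down), 3 replicates each, harvested after 72 h in culture. All were grown in RPMI medium with serum and bovine insulin. The hairpin groups are called sh76 and sh78 here, and both are set against the same scramble libraries. Nothing in the labels says whether replicates were separate transductions, so p-values measure only the spread between these samples, which may be technical.

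D cyclins (CCND1, CCND2, CCND3) bind the kinases CDK4 and CDK6, and E cyclins (CCNE1, CCNE2) bind CDK2. Both complexes phosphorylate the retinoblastoma protein and its relatives, which releases E2F factors and lets a cell pass from G1 into S phase. INK4 proteins (CDKN2A, CDKN2B, CDKN2C) block CDK4 and CDK6, whereas CIP/KIP proteins (CDKN1A, CDKN1B) bind cyclin-CDK complexes and inhibit CDK2. In high-grade ovarian carcinoma the pathway is best known for extra copies of CCNE1, which OVCAR3 carries, and for abundant p16INK4a, a CDKN2A product. Copy number and protein were not measured here.

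The promoters below belong to the inhibitors that passed a test against scramble (CDKN2B, CDKN2C, CDKN1A) and to CCNE1, the cyclin for which the line is known. They come from RefSeq on GRCh38.p14 and run from 250 bases before to 50 bases after an annotated start, 5′ to 3′ on the gene's strand. Of the 10 genes, 7 had 12 such promoters in that table, and CCND1, CCND2 and CCNE2 were not searched. CDKN2C had 3, of which the one with E2F-type letters is shown. Capitals mark GC boxes (GGGCGG) and E2F-type letters (TTCCCGC or TTGGCGC or TTCGCGC), each searched on both strands. A match describes letters only.
CCNE1 (chr19:29811741-29812040, plus strand): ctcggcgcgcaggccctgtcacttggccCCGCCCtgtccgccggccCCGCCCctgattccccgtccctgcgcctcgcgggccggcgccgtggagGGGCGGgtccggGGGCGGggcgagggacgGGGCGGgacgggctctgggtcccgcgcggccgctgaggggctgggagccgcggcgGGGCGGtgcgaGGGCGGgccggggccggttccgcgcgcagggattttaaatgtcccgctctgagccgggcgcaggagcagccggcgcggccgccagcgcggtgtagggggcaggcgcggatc
CDKN1A (chr6:36678464-36678763, plus strand): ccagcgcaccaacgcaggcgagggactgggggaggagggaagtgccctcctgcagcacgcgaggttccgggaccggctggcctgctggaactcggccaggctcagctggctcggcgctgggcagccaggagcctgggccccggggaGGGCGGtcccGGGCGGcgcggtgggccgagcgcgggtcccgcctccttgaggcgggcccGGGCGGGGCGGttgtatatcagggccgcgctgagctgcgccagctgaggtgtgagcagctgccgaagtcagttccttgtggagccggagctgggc
CDKN2B (chr9:22009256-22009555, minus strand): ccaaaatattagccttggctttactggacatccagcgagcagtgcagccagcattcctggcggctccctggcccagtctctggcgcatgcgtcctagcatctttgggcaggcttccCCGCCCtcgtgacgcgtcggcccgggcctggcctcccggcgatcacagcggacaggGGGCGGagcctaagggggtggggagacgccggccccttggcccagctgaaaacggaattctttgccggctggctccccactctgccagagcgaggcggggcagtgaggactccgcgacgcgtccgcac
CDKN2C (chr1:50968456-50968755, plus strand): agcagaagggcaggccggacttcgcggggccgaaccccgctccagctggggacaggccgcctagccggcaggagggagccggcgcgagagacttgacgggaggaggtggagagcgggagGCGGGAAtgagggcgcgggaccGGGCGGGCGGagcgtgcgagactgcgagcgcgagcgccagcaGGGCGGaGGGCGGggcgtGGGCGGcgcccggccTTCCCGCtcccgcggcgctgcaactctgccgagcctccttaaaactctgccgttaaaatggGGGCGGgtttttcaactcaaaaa
The promoters shown held 7 GC boxes in CCNE1, 4 in CDKN1A, 2 in CDKN2B and 6 in CDKN2C, and the other CDKN2C promoters held 0 and 1. Of the 7 genes searched, only CDKN2C had E2F-type letters, in 1 of its 3 promoters: GCGGGAA begins 131 bases and TTCCCGC 34 bases before the start, and neither overlaps a GC box. E2F-type letters were present in 11.0% of all 35116 promoters of this length and the GC box in 45.0%. In a list of S phase genes under E2F control, 18 of the 21 genes with a promoter in the table held E2F-type letters in at least 1 promoter. This is a count of genes, whereas the 11.0% is a share of single promoters, and a gene can have several.

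Total counts lay between 14652965 and 21327562 per library. GPX3 itself was at 133 ± 34.8 CPM (SD, n = 3) in scramble, 55.9 ± 0.852 in sh76 and 30.6 ± 4.01 in sh78, where CPM is the count scaled to library size with TMM factors. It fell by 1.25 on the log2 scale in sh76 (adjusted p = 0.00264) and fell by 2.12 in sh78 (adjusted p = 0.000125), and every hairpin library lay below every scramble library. All 8 markers fixed for an epithelial ovarian carcinoma line had counts in each group, with a summed level of 11652 to 12496 CPM in scramble, 10527 to 11435 in sh76 and 9632 to 10236 in sh78. Fibroblast markers summed to 26.9 to 38.8, 30.5 to 55.0 and 34.6 to 46.7 CPM, with DCN and LUM at 0 in scramble. In sh76 replicate 2, COL1A2 had 142 counts, COL3A1 53, DCN 11, PDGFRA 6 and LUM 3, each the highest of any library. COL1A2 had 19 to 25 counts in scramble and 24 to 51 in sh78. Without sh76 replicate 2, 0 genes of the set were called in sh76 against scramble by edgeR. Leukocyte markers summed to 2.25 to 3.87, 3.72 to 4.41 and 3.71 to 4.85 CPM, with CD3E and CD68 at 0 in scramble and sh76, and endothelial markers to 17.04 to 19.9, 18.1 to 24.2 and 23.1 to 31.9 CPM. The part of these shifts in the results was not tested.

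Per gene length, CDKN2A was the most abundant transcript of the set in scramble, at 168 ± 8.73 FPKM (fragments scaled to gene length and library size, n = 3), rank 167 of 16739 protein-coding genes above 0. CCND1 followed at 71.0 ± 7.99 FPKM, CCNE1 at 50.1 ± 9.18 and CDKN1B at 36.3 ± 0.565. The scramble ranges of these 4 genes did not overlap each other. In replicate 1 of both hairpins CCNE1 lay above CCND1, at 59.9 against 55.7 FPKM in sh76 and 55.5 against 48.5 in sh78. In scramble CDKN2B stood at 10.6 ± 1.27 FPKM, CCND3 at 4.88 ± 0.649, CDKN2C at 4.26 ± 0.693, CDKN1A at 3.23 ± 0.812 and CCNE2 at 1.73 ± 0.0182. CCND3 and CDKN2C overlapped in their scramble ranges (4.24 to 5.54 and 3.77 to 5.05 FPKM), as did CDKN2C and CDKN1A (2.32 to 3.89), whereas CCNE2 (1.71 to 1.74) lay below CDKN1A in all 3 scramble libraries. CCND2 had 1 count in 1 sh76 library and none in the other 8, where 3 counts would be 0.143 to 0.206 CPM; it was not tested, which left 9 of 10 genes.

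**Figure D1:**
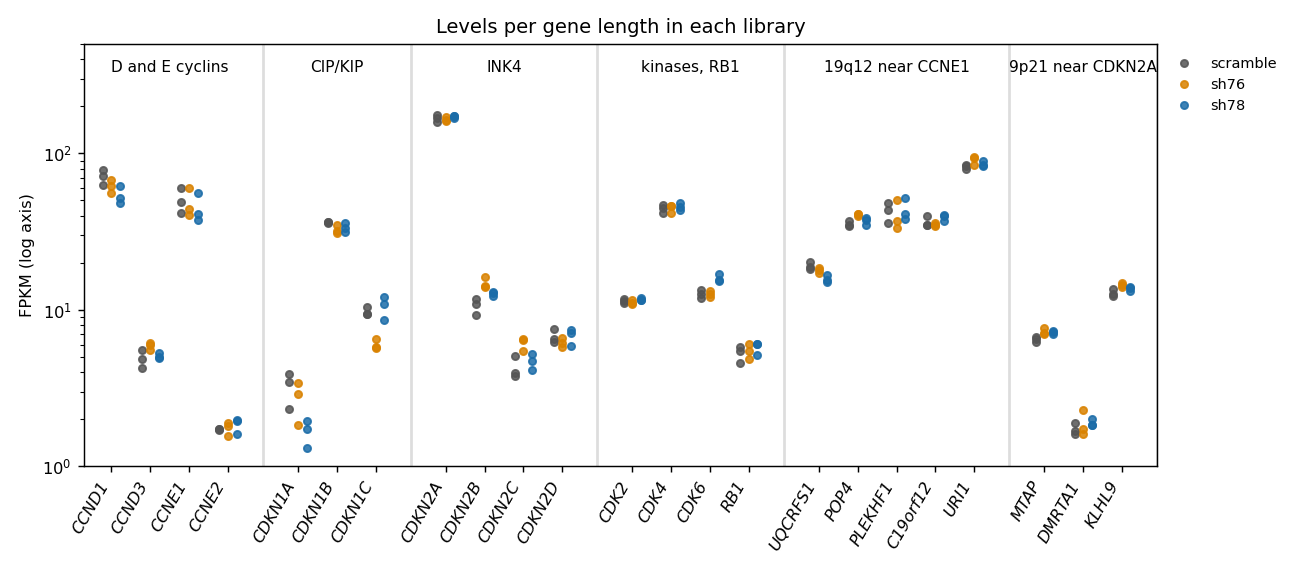
Level per gene length (FPKM, log axis) of the G1 cyclins and inhibitors that had counts, of related genes and of chromosomal neighbours, 1 point per library and 3 libraries per group. CDKN2A lies above 159 FPKM in all 9 libraries, CCND1 and CCNE1 between 37.6 and 78.7, and CCNE2 below 2.

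The kinases these proteins act on were all detected. In scramble CDK4 stood at 44.6 ± 2.54 FPKM, CDK6 at 12.7 ± 0.766 and CDK2 at 11.5 ± 0.374, with RB1, the retinoblastoma gene, at 5.27 ± 0.631. Of the inhibitors outside the set, CDKN1C (p57) stood at 9.77 ± 0.589 FPKM and CDKN2D (p19INK4d) at 6.76 ± 0.669.

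CCND1 supplied 93.5% ± 1.39 (SD, n = 3) of the summed D cyclin FPKM in scramble, 91.2% ± 0.981 in sh76 and 91.4% ± 1.22 in sh78. The D cyclin sum itself was 75.9 ± 7.63, 67.5 ± 5.84 and 59.4 ± 7.04 FPKM. CCNE1 supplied 96.6% ± 0.561, 96.3% ± 1.00 and 96.0% ± 0.758 of the summed E cyclin FPKM. CDKN2A supplied 91.9% ± 0.755 of the summed FPKM of the 3 INK4 genes of the set in scramble, 88.8% ± 0.578 in sh76 and 90.8% ± 0.232 in sh78. This sum leaves out the INK4 gene CDKN2D (6.76 FPKM in scramble), which is outside the set. The scramble shares of CDKN2A (91.3% to 92.7%) lay above those of both hairpins (88.2% to 89.3% in sh76, 90.5% to 91.0% in sh78). These shares are descriptions without a test.

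Against scramble, sh76 cultures held more CDKN2B and CDKN2C, both INK4 inhibitors, by 1.41-fold and 1.44-fold, and sh78 cultures held less CDKN1A (p21), at 0.513 of the scramble level. In this fit no cyclin passed the test against scramble, and no gene of the set passed it in both hairpins. Both statements change when the replicate number enters the model: CCND1 was then called lower and CDKN2B higher with both hairpins, CCND3 higher in sh76 and CCNE1 lower in sh78. In sh76, 2 of 9 genes rose and none fell, where 3.58% of all 17023 genes tested were called, 1.43% higher and 2.16% lower. In sh78, none rose and 1 fell, where 4.41% of all genes were called, 1.85% higher and 2.56% lower. Between sh78 and sh76 none of the 9 was called by edgeR (4 had an unadjusted p under 0.05, and DESeq2 called 0), where 3.7% of all genes were called, 1.97% higher and 1.72% lower. The median log2 fold change of the 9 genes was −0.01 in sh76, 0.03 in sh78 and −0.19 between sh78 and sh76, against 0.01, 0.01 and 0.00 over all genes tested.

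A model that adds the replicate number as a blocking term (the block) called more of the set, and more of all genes. In sh76 it called 5 of 9 (CDKN2B, CDKN2C and CCND3 higher, CCND1 and CDKN1B lower), where 20.4% of all genes were called. In sh78 it called 4 of 9 (CDKN2B higher, CDKN1A, CCND1 and CCNE1 lower), where 19.9% were called. Between sh78 and sh76 it called 5 of 9 (CDKN1A, CDKN2B, CDKN2C, CCND1 and CCND3, all lower in sh78), where 18.3% were called. The groups did not overlap for 4 of 9 genes in sh76 against scramble, for 3 in sh78 against scramble and for 3 in sh78 against sh76, compared with 22.5%, 21.5% and 21.8% of all genes.

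**Figure D2:**
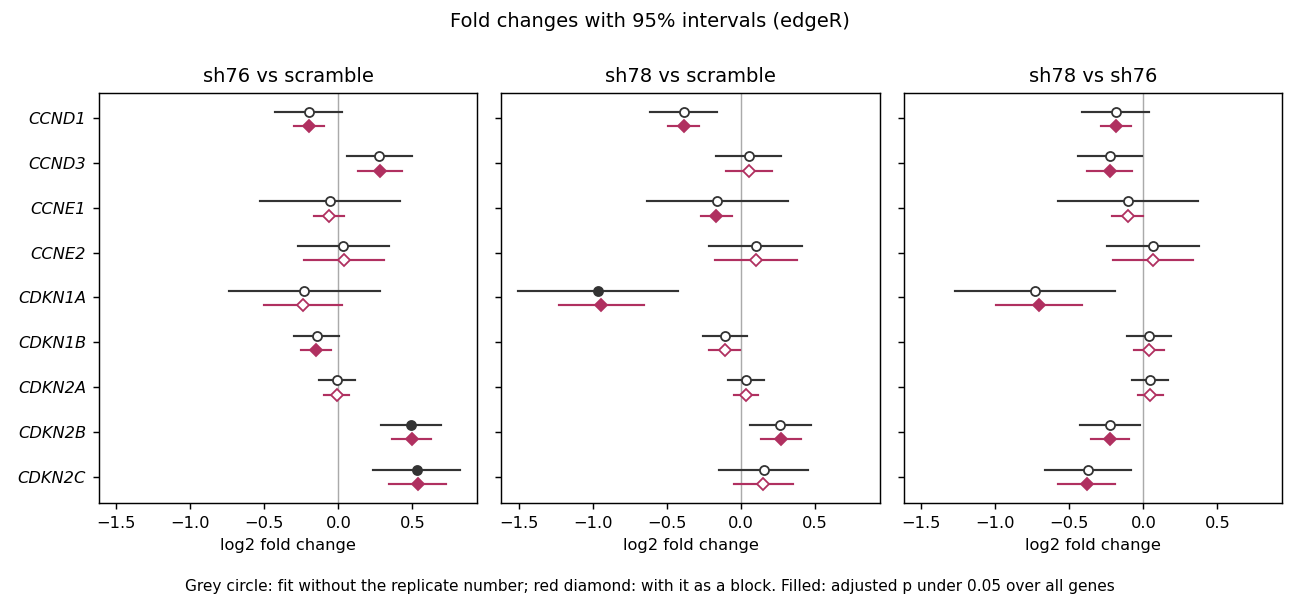
Log2 fold change with its 95% interval for each of the 9 genes tested in the 3 comparisons, without (circles) and with (diamonds) the replicate number as a block. Filled symbols mark an adjusted p under 0.05 over all genes: CDKN2B and CDKN2C in sh76 and CDKN1A in sh78 are filled in both fits.

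Cyclin D1, from CCND1 (chr11:69641087-69654474), is the D cyclin most often induced by growth signals. Its level was 306, 348 and 380 CPM in scramble replicates 1 to 3, 272, 330 and 299 in sh76, and 236, 303 and 254 in sh78. Every sh78 library lay below every scramble library, while sh76 overlapped both groups. The log2 fold change in sh78 was −0.39 (SE 0.10, adjusted p = 0.0605 by edgeR), short of the threshold, and it was called with the replicate block (adjusted p = 9.93e-07) and by DESeq2 (adjusted p = 0.0182). In sh76 it was −0.20 (SE 0.10, adjusted p = 0.353), and −0.20 with an adjusted p of 0.0039 with the block. CCND1 was lower than scramble of the same number in 3 of 3 pairs with each hairpin. Its exons share 497 of 4830 bases with LTO1 on the opposite strand, which had 349 to 533 counts against at least 3905 for CCND1; reads there cannot be assigned to a strand.

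Cyclin D3, from CCND3 (chr6:41934933-42050357), differed from CCND1 in direction in sh76. CCND3 measured 32.4, 24.8 and 28.1 CPM in scramble, 35.9, 35.0 and 32.5 in sh76, and 30.9, 28.96 and 28.6 in sh78. All sh76 libraries lay above the others, the nearest by a small margin (32.5 against 32.4 CPM). Its log2 fold change in sh76 was 0.28 (SE 0.10, adjusted p = 0.162), called with the replicate block (adjusted p = 0.00441), and in sh78 it was 0.05 (adjusted p = 0.857). Between sh78 and sh76 it was −0.22 (adjusted p = 0.288), called with the block (adjusted p = 0.0252).

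Cyclin E1, from CCNE1 (chr19:29811898-29824308), drives CDK2 at the G1 to S transition. It measured 154, 107 and 125 CPM in scramble, 154, 104 and 113 in sh76, and 143, 105 and 96.5 in sh78. The groups overlapped widely, and replicate 1 was the highest of each. The log2 fold change was −0.06 in sh76 (95% interval −0.53 to 0.42, adjusted p = 0.932) and −0.16 in sh78 (−0.64 to 0.32, adjusted p = 0.777). With the block it was −0.17 in sh78 (interval −0.27 to −0.06, adjusted p = 0.0174), which passed the test.

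Cyclin E2, from CCNE2, is the close relative of cyclin E1. It measured 7.71, 7.57 and 7.64 CPM in scramble, 6.97, 8.38 and 8.06 in sh76, and 8.78, 7.15 and 8.57 in sh78. The groups overlapped, and no fit called it: the log2 fold change was 0.03 in sh76 (interval −0.27 to 0.34) and 0.10 in sh78 (−0.21 to 0.41). Of its 4397 exon bases, 1629 are shared with INTS8 on the opposite strand, which had 533 to 1024 counts against 104 to 173 for CCNE2, so part of either gene's reads could be lost or exchanged.

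**Figure D3:**
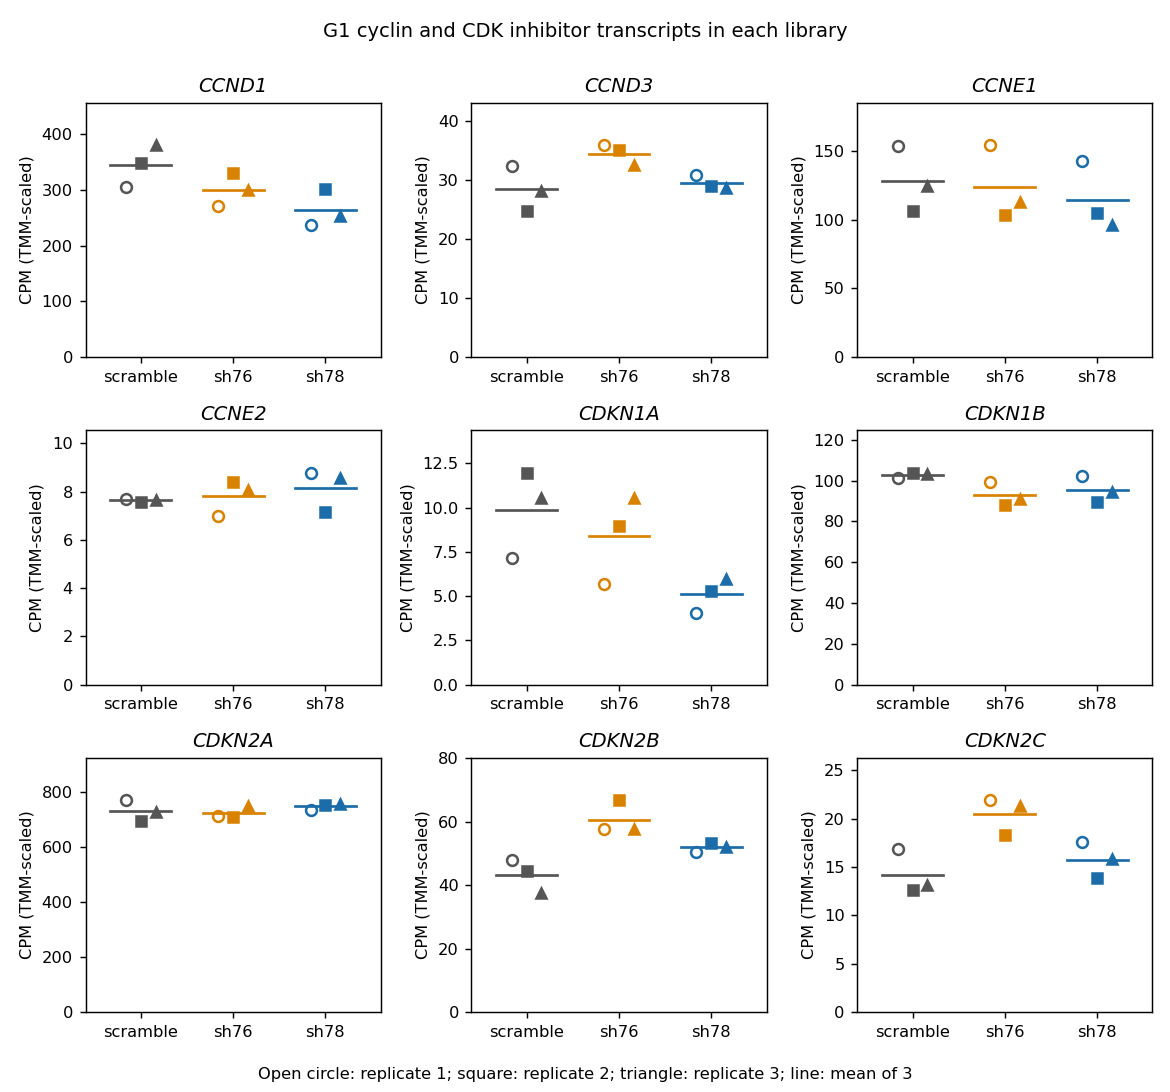
CPM of the 9 genes tested in each of the 9 libraries, with the mean of each group as a line and each vertical axis from 0. CDKN2B and CDKN2C are highest in sh76, CDKN1A is lowest in sh78, and CDKN2A is nearly level.

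The CIP/KIP gene CDKN1A (chr6:36676460-36687339) encodes p21, an inhibitor of cyclin-CDK2 complexes. It measured 7.14, 11.97 and 10.6 CPM in scramble, 5.68, 8.97 and 10.5 in sh76, and 4.04, 5.30 and 5.98 in sh78. Every sh78 library lay below every scramble library, while sh76 overlapped both, and replicate 1 was the lowest of each group. CDKN1A fell by 0.96 on the log2 scale in sh78 (SE 0.25, adjusted p = 0.0466), in 3 of 3 pairs. The adjusted p was just under the threshold and exceeded it when any of 6 of the 9 libraries was left out (0.0749 to 0.166; scramble 2 or 3, sh76 2, or sh78 1, 2 or 3) and by limma on log2(FPKM + 1) and log2(FPKM + 0.1), at 0.0998 and 0.0932. The fall was called in 8 of the 16 alternatives tried, the block among them (adjusted p = 1.95e-06 in that fit). With 75 to 221 counts per library, CDKN1A is among the most shallowly counted of the set. In sh76 the log2 fold change was −0.23 (interval −0.74 to 0.28, adjusted p = 0.68). The difference between the hairpins was −0.73 (SE 0.25, adjusted p = 0.141), called with the block at −0.70 (adjusted p = 0.000291).

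CDKN1B (chr12:12715058-12722371) encodes p27, which restrains cyclin E-CDK2 and is controlled largely through its breakdown. It measured 101, 104 and 103 CPM in scramble, 99.3, 88.2 and 91.0 in sh76, and 102, 89.3 and 94.2 in sh78. Scramble lay above all of sh76, whereas sh78 overlapped both. Its log2 fold change was −0.15 in sh76 (SE 0.07, adjusted p = 0.299; 0.0279 with the block) and −0.11 in sh78 (adjusted p = 0.485). The ratio of CDKN1B to CDKN1A per length was 11.8 ± 3.16 in scramble, 13.0 ± 5.21 in sh76 and 20.95 ± 5.66 in sh78, a description without a test.

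The INK4 gene CDKN2B (chr9:22002903-22009363) encodes p15INK4b, a known target of TGF-beta signalling. It measured 48.0, 44.3 and 37.4 CPM in scramble, 57.6, 66.7 and 57.7 in sh76, and 50.6, 53.2 and 52.0 in sh78. The 3 groups did not overlap: scramble was lowest, sh78 between and sh76 highest. CDKN2B rose by 0.49 on the log2 scale in sh76 (SE 0.10, interval 0.29 to 0.69, adjusted p = 0.0109). This call was kept in 15 of the 16 alternatives tried. Without sh76 replicate 2 the adjusted p was 0.0724 at a log2 fold change of 0.42. In sh78 the log2 fold change was 0.27 (SE 0.10, adjusted p = 0.152; 0.00275 with the block), and between sh78 and sh76 it was −0.23 (adjusted p = 0.246; 0.0101 with the block). CDKN2B was higher than scramble of the same number in 3 of 3 pairs with each hairpin.

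CDKN2C (chr1:50960745-50974633) encodes p18INK4c and carries the E2F-type letters shown above. It measured 16.9, 12.6 and 13.1 CPM in scramble, 21.9, 18.3 and 21.3 in sh76, and 17.6, 13.8 and 15.9 in sh78. Every sh76 library lay above every library of the other groups. CDKN2C rose by 0.53 on the log2 scale in sh76 (SE 0.14, adjusted p = 0.0488), in 3 of 3 pairs. Without the block this call sat at the threshold. It was kept in 6 of the 16 alternatives tried, the block among them (adjusted p = 3.74e-05 in that fit). The adjusted p was 0.0546 to 0.185 when scramble 2 or 3, any sh76 library, or sh78 2 or 3 was left out. It was 0.0638 with only both compared groups in the fit and 0.0702 and 0.072 by limma on log2(FPKM + 1) and log2(FPKM + 0.1). In sh78 the log2 fold change was 0.15 (interval −0.15 to 0.45, adjusted p = 0.648), and between sh78 and sh76 −0.38 (adjusted p = 0.167; 0.00254 with the block).

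CDKN2A (chr9:21967753-21995301) encodes p16INK4a and, from a different start exon and reading frame, p14ARF, which counts per gene cannot tell apart. It measured 770, 694 and 729 CPM in scramble, 715, 710 and 750 in sh76, and 735, 754 and 757 in sh78. The groups overlapped, and the log2 fold changes were −0.01 in sh76 (interval −0.13 to 0.11) and 0.03 in sh78 (−0.09 to 0.16), the narrowest intervals of the set. The ratio of CDKN2A to CDKN2B per length was 16.0 ± 1.97 in scramble, 11.3 ± 1.15 in sh76 and 13.5 ± 0.200 in sh78. Among the 45 pairs of the 10 genes, only CDKN2A and CDKN2B shared any 50-base stretch of exon sequence (31 stretches, 0.681% of those in CDKN2A and 0.765% in CDKN2B).

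Libraries with replicate number 1 stood apart for some of these genes in all 3 groups, a contrast chosen after the values were seen. Within the block fit, replicate 1 was compared with the mean of replicates 2 and 3 over all groups. CCNE1 was higher in replicate 1 by 0.48 on the log2 scale (SE 0.04, adjusted p = 4.54e-11) and CDKN2C by 0.26 (adjusted p = 0.0186). CDKN1A was lower by this comparison at −0.65 (SE 0.13, adjusted p = 9.49e-05), as was CCND1 at −0.23 (adjusted p = 0.0002). The other 5 genes tested were not called, with CDKN2A at 0.02 (interval −0.06 to 0.09). Over all genes 24.1% were called. For CCNE1 the estimate was larger than that of either hairpin against scramble, a difference that was not tested. The labels do not say what the number stands for.

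**Figure D4:**
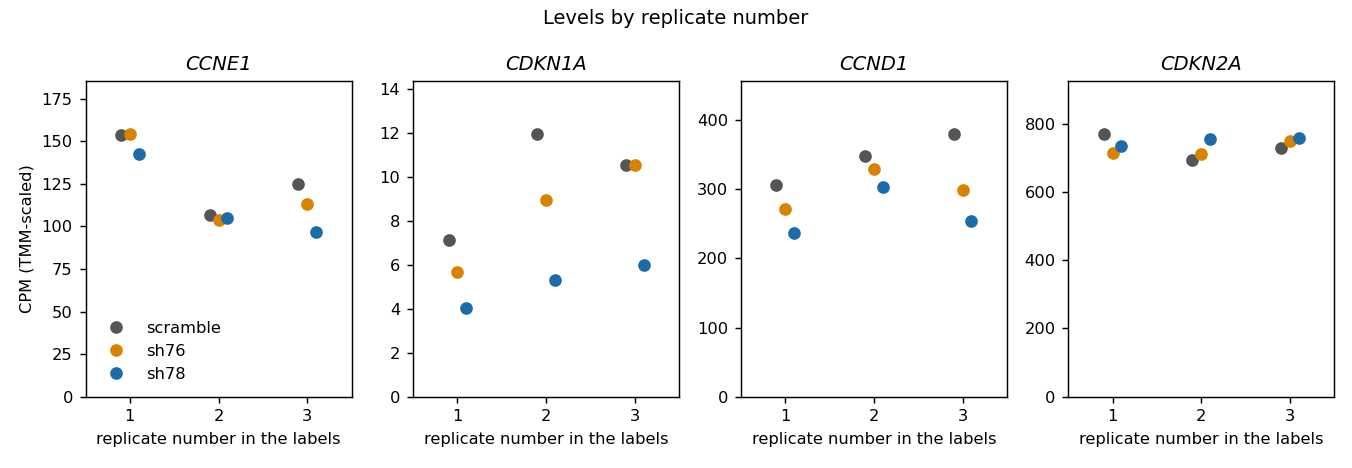
CPM of CCNE1, CDKN1A, CCND1 and CDKN2A by the replicate number in the labels, 1 point per library, axes from 0. In each group replicate 1 is the highest for CCNE1 and the lowest for CDKN1A and CCND1, and CDKN2A shows no such order.

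The rest of the G1 to S machinery was read from a list of 38 genes, all tested. In sh76 none rose and 1 fell: CDKN1C, the CIP/KIP inhibitor p57, which fell by 0.70 on the log2 scale (adjusted p = 0.00752). In sh78, 2 rose (CDK6, a D cyclin kinase, by 0.33, adjusted p = 0.0111, and MDM2, a ubiquitin ligase gene, by 0.28, adjusted p = 0.0327) and 1 fell (CCNA1, a cyclin A gene of restricted expression, which fell by 1.03, adjusted p = 0.00865). Between sh78 and sh76, CDK6 was higher by 0.33 (adjusted p = 0.0123) and CDKN1C by 0.80 (adjusted p = 0.00297) in sh78, and CCNA1 was lower at −1.30 (adjusted p = 0.00245). These 1, 3 and 3 of 38 genes stand beside 3.58%, 4.41% and 3.7% of all genes tested. The block fit called 4 in sh76 (2 higher, 2 lower), 7 in sh78 (5 higher, 2 lower) and 7 between the hairpins (4 higher, 3 lower), beside 20.4%, 19.9% and 18.3% of all genes. The list's median log2 fold change was 0.00 in each comparison.

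CDK6 stood at 148, 167 and 155 CPM in scramble, 150, 163 and 155 in sh76, and 192, 209 and 189 in sh78. All sh78 libraries lay above all others; without sh78 replicate 2 the adjusted p was 0.0631 against scramble and 0.0582 against sh76. CDKN1C measured 23.5, 23.6 and 25.9 CPM in scramble, 14.4, 14.3 and 16.3 in sh76, and 30.1, 21.3 and 27.1 in sh78. The sh76 libraries were the lowest, and sh78 overlapped scramble. CCNA1 measured 10.9, 6.28 and 9.70 CPM in scramble, 11.5, 9.59 and 11.3 in sh76, and 3.99, 4.95 and 4.22 in sh78. All sh78 libraries lay below the others. The calls of CDKN1C and CCNA1 were kept in every alternative tried. MDM2 measured 61.8, 60.5 and 62.9 CPM in scramble, 72.7, 68.5 and 73.8 in sh76, and 71.3, 75.0 and 78.5 in sh78, above scramble in every hairpin library; its call in sh78 was lost when any scramble library, sh78 2 or sh78 3 was left out (adjusted p 0.0661 to 0.13), with only both compared groups in the fit (0.0606) and by limma on either FPKM scale (0.0936 and 0.0946). CDK2, CDK4, RB1 and CDKN2D were not called in any comparison, with log2 fold changes between −0.12 and 0.14.

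**Figure D5:**
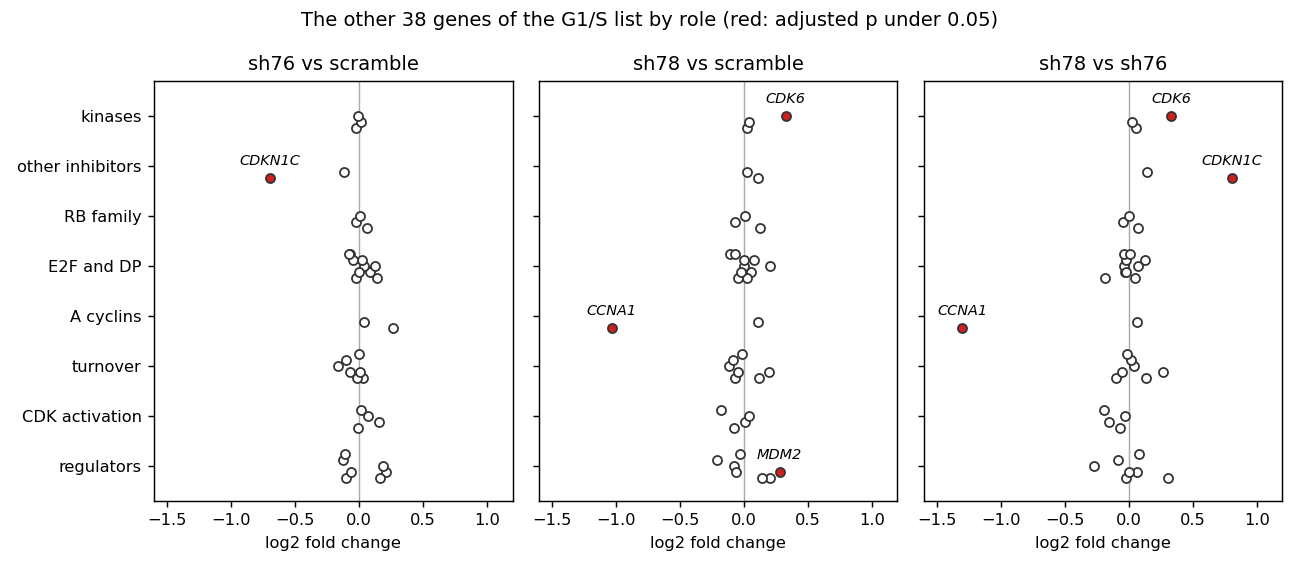
Log2 fold change of the 38 other genes of the G1 to S list by role, 1 point per gene, in the 3 comparisons. The called genes (red) are CDKN1C, CDK6, CCNA1 and MDM2; most of the rest lie within 0.3 of 0.

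Genes further down the pathway were described with another list. Of 24 S phase genes under E2F control, 0 were called in sh76 (edgeR; 3 had an unadjusted p under 0.05), 2 rose in sh78 (MCM3 by 0.27 and MCM4 by 0.25, subunits of the replicative helicase) and 1 was higher in sh78 than in sh76 (MCM3 by 0.24). These calls were marginal: leaving out scramble 2 or sh78 3 lost MCM3 in sh78 (adjusted p 0.0541 and 0.0632), leaving out any scramble library, sh78 1 or sh78 2 lost MCM4 (0.0517 to 0.0872), and leaving out any sh76 or sh78 library lost MCM3 between the hairpins (0.0639 to 0.112). MCM4 measured 203 to 214 CPM in scramble, 235 to 248 in sh76 and 239 to 258 in sh78, above scramble in every library of both hairpins. The 0, 2 and 1 of 24 genes stand beside 3.58%, 4.41% and 3.7% of all genes. With the block, 4 were called in sh76 (2 higher, 2 lower), 6 in sh78 (5 higher, 1 lower) and 4 between the hairpins (all higher in sh78), beside 20.4%, 19.9% and 18.3% of all genes. The median log2 fold changes without the block were 0.00, 0.07 and 0.05.

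Genes next to CCNE1 on 19q12 were also abundant. In scramble URI1 stood at 82.7 ± 2.71 FPKM, PLEKHF1 at 42.5 ± 6.29, C19orf12 at 36.4 ± 2.66, POP4 at 35.4 ± 1.45 and UQCRFS1 at 19.1 ± 0.894. VSTM2B had no counts, ZNF536 0 to 1 and TSHZ3 0 to 4 counts per library. Of the 5 tested, UQCRFS1, a subunit of respiratory complex III, fell by 0.28 in sh78 (adjusted p = 0.0443, and 0.0503 to 0.16 when any scramble library, sh76 2 or 3, or sh78 1 or 3 was left out; 0.0797 with only both compared groups in the fit and 0.0502 by limma on log2(FPKM + 1)), and no other passed the test without the block. With it, POP4 was called higher in sh76 by 0.20 (adjusted p = 0.000431) and URI1 by 0.14 (adjusted p = 0.00793). Between sh78 and sh76 the block fit called C19orf12 higher by 0.15 (adjusted p = 0.0136), POP4 lower at −0.14 (adjusted p = 0.0149) and UQCRFS1 lower at −0.19 (adjusted p = 0.0147). In the comparison of replicate 1 with replicates 2 and 3, where CCNE1 was higher, URI1 was lower at −0.10 (adjusted p = 0.0335), and POP4, PLEKHF1, C19orf12 and UQCRFS1 were not called, with estimates between −0.08 and 0.09.

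Around CDKN2A and CDKN2B on 9p21, MTAP stood at 6.49 ± 0.225 FPKM in scramble, KLHL9 at 12.8 ± 0.749, DMRTA1 at 1.73 ± 0.154, the antisense transcript CDKN2B-AS1 at 0.294 ± 0.0689 and ELAVL2 at 0.141 ± 0.0813. ELAVL2 was too low to test. CDKN2B-AS1 measured 2.64, 2.76 and 1.72 CPM in scramble, 5.49, 3.93 and 4.39 in sh76, and 4.09, 4.20 and 3.31 in sh78. Both hairpin groups lay above scramble, and it rose by 0.95 in sh76 (SE 0.23, adjusted p = 0.0336). That call was lost when scramble 2 or 3 or any sh76 library was left out (adjusted p 0.064 to 0.14) with only both compared groups in the fit (0.0574), and by limma on log2(FPKM + 1), at a difference of 0.28 (adjusted p = 0.0718), and on log2(FPKM + 0.1), at 0.77 (adjusted p = 0.0841). In sh78 the log2 fold change was 0.71 (SE 0.23, adjusted p = 0.116; 0.0123 with the block). With libraries that keep no strand, reads of CDKN2B-AS1 and of the genes it crosses cannot be told apart where exons meet: it shares 341 exon bases with CDKN2A and 0 with CDKN2B. The log2 fold changes of MTAP, KLHL9 and DMRTA1 were all above 0 with both hairpins (0.09 to 0.17), and none passed the test without the block. With it, MTAP (0.17, adjusted p = 0.00937) and KLHL9 (0.17, adjusted p = 0.0146) were called higher in sh76, and MTAP (0.15, adjusted p = 0.0251) in sh78.

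Among 10832 protein-coding genes with at least 1 FPKM in each group, those nearest in profile to the 3 called members were found by the root mean square difference of centred log2 CPM over the 9 libraries. For CDKN1A these were HES2 (0.162), CD70 (0.172) and S100A14 (0.179), where the median gene was at 0.517. For CDKN2C they were KLHDC8A (0.0894), TMEM79 (0.0906) and PPP1R3B (0.1001), where the median gene was at 0.302. For CDKN2B they were TPBG (0.0771), TUT7 (0.0902) and PXMP2 (0.0939), where the median gene was at 0.267. As a level, S100A14 was at 101, 100.1 and 57.4 CPM in scramble, sh76 and sh78, TPBG at 44.1, 60.1 and 49.6, and KLHDC8A at 84.5, 115 and 86.0.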

How the data were processed

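RNA from 9 OVCAR3 cultures was sequenced from poly-A-selected, non-directional libraries, per the labels' protocols. The submitters' processing notes name HISAT2 2.0.5, featureCounts 1.5.0-p3 and hg38. The authors deposited raw counts and FPKM values for 58735 genes, and all identifiers matched GENCODE 29, from which coordinates were taken. The tests used edgeR 4.0.16 (R 4.3.3): filterByExpr (minimum count 10, minimum total 15) kept 17023 genes, and TMM scaling and robust quasi-likelihood F tests were fitted to all 9 libraries, with 1 coefficient per group. P-values were adjusted by Benjamini-Hochberg over all genes tested and called under 0.05. The common biological coefficient of variation was 10.4%, and the test script was tested on simulated data for sh76 against scramble (16737 genes, 100 changed by 1 and 100 by 0.5 on the log2 scale): it recovered 83% and 44% of these, and 12.4% of its calls were false. The simulated counts held no effect of replicate number, and the changed genes were drawn only from those above a minimum expected count. The rates in the real data may therefore differ.

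Within groups, no replicate duplicated another (chi-square per degree of freedom 5.20 to 11.7 over 9 pairs). The labels give each group replicates 1 to 3. Deviations from group means correlated at 0.14 to 0.39 in all 9 same-numbered pairs and at −0.31 to 0.064 in the other 18, so the numbers were read as pairing the libraries, and the model with that number as a blocking term is given beside the counts and named genes whose call it changes. Other alternatives were DESeq2 1.42.0, RLE scaling, no filter, 2 groups at a time, limma 3.58.1 on log2(FPKM + 1) or + 0.1, and leaving out each library.

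The members and gene lists were chosen with earlier results of these data known. The genes named are the members, GPX3, every called gene of the pathway, neighbour and S phase lists, all neighbours, CDK2, CDK4, CDK6, RB1 and CDKN2D, and the 3 genes nearest in profile to each called member. Called marker genes are given in the closing section. Some genes of these lists and a further list are not reported here.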

Additional observations from a re-analysis of the deposited data

Results flagged for a closer look

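Genes of the lists that differed between sh78 and sh76 by edgeR, a test of the difference between the hairpins itself, were CDKN1C (log2 fold change 0.80, adjusted p = 0.00297), CCNA1 (−1.30, adjusted p = 0.00245), CDK6 (0.33, adjusted p = 0.0123), MCM3 (0.24, adjusted p = 0.031), GPX3 (−0.86, adjusted p = 0.0194) and the carcinoma marker PAX8 (0.37, adjusted p = 0.00386). Leaving out any sh76 library, sh78 2 or sh78 3 moved GPX3 to an adjusted p of 0.0604 to 0.0843, leaving out any sh76 or sh78 library moved MCM3 to 0.0639 to 0.112, and leaving out sh78 replicate 2 moved CDK6 to 0.0582. Each had the same direction in 3 of 3 same-numbered pairs. No G1 cyclin or inhibitor of the set was among them in this fit, which had no block. With the block, 5 of the 9 genes tested were called (CDKN1A, CDKN2B, CDKN2C, CCND1 and CCND3, all lower in sh78), beside 18.3% of all genes. Groups of 3 libraries were too small to test for a library that stands apart.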

How the results depend on the processing

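Each count of called genes was recomputed under 16 alternatives. With the replicate number as a block, members called were 5 in sh76, 4 in sh78 and 5 between sh78 and sh76, other G1 to S genes called were 4, 7 and 7, and all genes called were 3467, 3388 and 3117. Without a filter, members called were 2 in sh78 and 1 between the hairpins, other G1 to S genes 5 between the hairpins, and all genes 1149, 1212 and 1125. DESeq2 called 2 members in sh78. With only the compared groups in the fit, 1 member was called in sh76. Limma on either FPKM scale (pseudocount 1 or 0.1) called 1 member in sh76 and 0 in sh78. Leaving out 1 library gave 0 to 2 members in sh76, 0 to 2 in sh78 and 0 to 1 between the hairpins, 1 to 3 other G1 to S genes in sh78, and 237 to 655, 418 to 810 and 273 to 780 genes in all. The lowest counts over all genes came without sh76 replicate 2 (237 in sh76), without scramble replicate 2 (418 in sh78) and without sh76 replicate 2 (273 between the hairpins). The highest came without sh78 replicate 1 (655), sh76 replicate 1 (810) and scramble replicate 1 (780). The cause was not tested.

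Leave-one-out turned the sign only of small changes that no fit without the block called: CCNE1 (−0.25 to 0.0882 in sh76, −0.29 to 0.0859 between the hairpins), CCNE2 (−0.0202 to 0.11 and −0.00669 to 0.15), CDKN2A (−0.0544 to 0.0227 in sh76, −0.00567 to 0.0711 in sh78), CCND3 (−0.0401 to 0.15 in sh78), CDKN1B (−0.0149 to 0.0890 between the hairpins), CDK6 (−0.0489 to 0.0362 in sh76) and CDKN1C (−0.0113 to 0.23 in sh78). Among the 9 members' changes in the 3 comparisons, the remaining ones kept their sign in all 16 alternatives. Of the 9 genes, CCNE2 and CDKN1A had the fewest counts, 75 to 221 per library.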

Other observations

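Of the 8 markers listed for an epithelial ovarian carcinoma line, 1 was called in sh76 and 3 in sh78, all lower, where 3.58% and 4.41% of all genes were called. PAX8, a transcription factor of Müllerian epithelium, fell by 0.28 in sh76 (adjusted p = 0.0196, and 0.0509 to 0.0707 without scramble 1 or 2 or any sh76 library). KRT8 fell by 0.52 (adjusted p = 0.00259), KRT18 by 0.46 (adjusted p = 0.0105, and 0.0535 without scramble replicate 2) and the adhesion gene EPCAM by 0.33 (adjusted p = 0.00387) in sh78. Positive estimates, none called, were those of KRT7 (0.24 in sh76 and 0.16 in sh78), MUC16 (0.18 and 0.06) and PAX8 in sh78 (0.09). The estimates of 6 markers in sh76 and 5 in sh78 were negative. Among these, WT1 and CDH1 were not called with either hairpin. WT1 had the lowest estimate in sh76 (−0.58), with 108 ± 6.57 CPM in scramble and 72.4 ± 23.2 in sh76 (n = 3 each). With the replicate block 7 of the 8 were called in sh76 (2 higher, KRT7 and MUC16, and 5 lower) and 5 in sh78 (KRT7 higher and 4 lower). In that fit 20.4% and 19.9% of all genes were called. Of 3 endothelial markers tested, 1 was called with each hairpin: KDR, a VEGF receptor gene, rose by 0.55 in sh76 (adjusted p = 0.0396, and 0.0775 to 0.149 without any scramble library, sh76 2 or sh76 3, 0.0561 with only both compared groups in the fit, and 0.0902 to 0.106 by limma) and by 1.00 in sh78 (adjusted p = 0.00087), from 9.39 ± 0.666 CPM in scramble (n = 3). VWF was at −0.18 and −0.06 and CDH5 at 0.05 and 1.06 in sh76 and sh78, not called, and PECAM1 was too low to test, at 0.347, 0.36 and 0.198 CPM in scramble, sh76 and sh78.

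Within the list of G1 to S genes, E2F1, an E2F factor gene held in check by RB1, was lower in sh78 than in sh76 at −0.19 (adjusted p = 0.134, and 0.00225 with the block), in 3 of 3 pairs. E2F1 measured 133 to 144 CPM in scramble, 148 to 165 in sh76 and 133 to 140 in sh78. Every sh76 library lay above all others, and sh78 overlapped scramble.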
